A study of Mus musculus with 12 samples.

Results

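Odorant receptors (ORs) are the G protein-coupled receptors with which olfactory sensory neurons (OSNs) detect odorants. Each OSN chooses a single OR gene and expresses it from a single allele. Enhancers in or beside the OR clusters, bound by the homeodomain factor Lhx2 and by Ebf factors, take part in this choice. Most class II genes are expressed in restricted zones along the dorsal to ventral axis of the epithelium. Mouse ORs fall into class I, which sits in a cluster on chromosome 7, and class II, which is spread over many chromosomes. The genes described here are the class II ORs of chromosome 9, a chromosome that the deletion under study does not touch. They include *Olfr151* and *Olfr160*, long used as M71 and M72 to trace the axons of OSNs that share a receptor, and *Olfr910* and *Olfr912*, known from other work to change in amount with the presence of mice of the other sex.

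The members are the probe sets that the study's list of OR probe sets places in class II on chromosome 9 and whose first gene symbol is not that of a pseudogene. There were 133 of them, or 11.0% of all OR probe sets on the list, and 7 further chromosome 9 probe sets of pseudogenes were left out. The rule used class and position and no expression value. Of the 133, 123 carried 1 gene symbol and 10 carried several, so that the latter cannot separate near-identical receptors. Class II genes on other chromosomes gave 858 probe sets without pseudogenes, among them 114 on chromosome 7, 81 on chromosome 11 and 290 on chromosome 2.

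Arrays were hybridized with total RNA of the main olfactory epithelium (MOE), where the OSNs lie, 1 array per mouse, from 6 ΔJ and 6 wild-type animals. ΔJ mice lack the J element, an enhancer inside the class I cluster. They came from 1 founder made with CRISPR-Cas9 in fertilized B6C3F1 eggs and crossed to C57BL/6NCrSlc. The study uses the name ΔJ for homozygotes and describes the arrays as ΔJ against wild-type. Its methods list heterozygotes of the second backcross for the arrays, and the labels do not settle whether those were the arrayed animals or their parents. By in situ hybridization the study found no significant difference in OSN numbers between heterozygotes and wild-type for the class I genes it counted. On these arrays class I genes had a median log2 fold change of -0.50 in ΔJ. After so few crosses, background other than C57BL/6NCrSlc can differ among the mice. The labels call the ΔJ samples J-knockout and give the strain of every mouse as C57BL/6. The wild-type mice were littermates without the deletion. There were 3 ΔJ males, 3 ΔJ females, 2 wild-type males and 4 wild-type females. They were taken at P30, except 1 ΔJ and 2 wild-type mice at P33. In bulk tissue, fewer OSNs that choose a receptor and less RNA per OSN cannot be told apart.

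Values are log2 signals from which the 75th percentile of each array was subtracted. Y-linked *Kdm5d* served as a gauge of background, with a mean of -3.72 in the 7 females (range -4.23 to -3.05) and a range of -1.31 to -0.97 in the 5 males. By this gauge 22 of the 133 members had a mean under the female mean of *Kdm5d* and 111 did not. The mature OSN markers, *Omp* among them, had a mean level of 2.73 to 2.82 in wild-type and 2.65 to 2.82 in ΔJ mice, so the labelled tissue held OSNs in all 12 mice. None of the 12 lists of cell type markers held a gene that differed between genotypes by limma at an adjusted p under 0.05, and 1 gene of the immature OSN list, the tubulin gene *Tubb3*, had an unadjusted p under 0.05 (log2 fold change 0.26). A call of a genotype difference needed an adjusted p under 0.05 and more than a 1.3-fold change, which 6.18% of all OR probe sets met as decreased in ΔJ and 0.0824% as increased.

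The arrays fell into 2 sets that followed the replicate numbers. The SD of the values within an array was 2.07 to 2.13 in replicates 1 to 3 and 2.20 to 2.23 in replicates 4 to 6. Each set held 3 mice of each genotype. The labels do not say what the replicates of a set shared.

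1 mouse stood apart in class II receptors, more in those of other chromosomes than in the members. ΔJ replicate 5, a female, held the lowest value of all 12 mice in 45 of 133 members (33.8%) and in 434 of 858 class II genes on other chromosomes (50.6%). Among the members, the other 11 mice held the lowest value in at most 26 genes each. *Ncam2*, a cell adhesion molecule of OSNs of the ventral zone, was 0.90 in this mouse and between 1.39 and 1.91 in the others. *Nqo1*, an enzyme of the dorsal zone, was 2.27 in this mouse and between 1.57 and 1.85 in the others. *Nrp2*, another ventral marker, was 1.46 in this mouse, within the range of the others (1.21 to 1.58). *Acsm4*, another dorsal marker, was 3.74 in this mouse, above the range of the others (3.54 to 3.72). *Omp* was 3.98, within the range of the others (3.88 to 4.05). The part of these values in the results below was not tested.

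**Figure D1:**
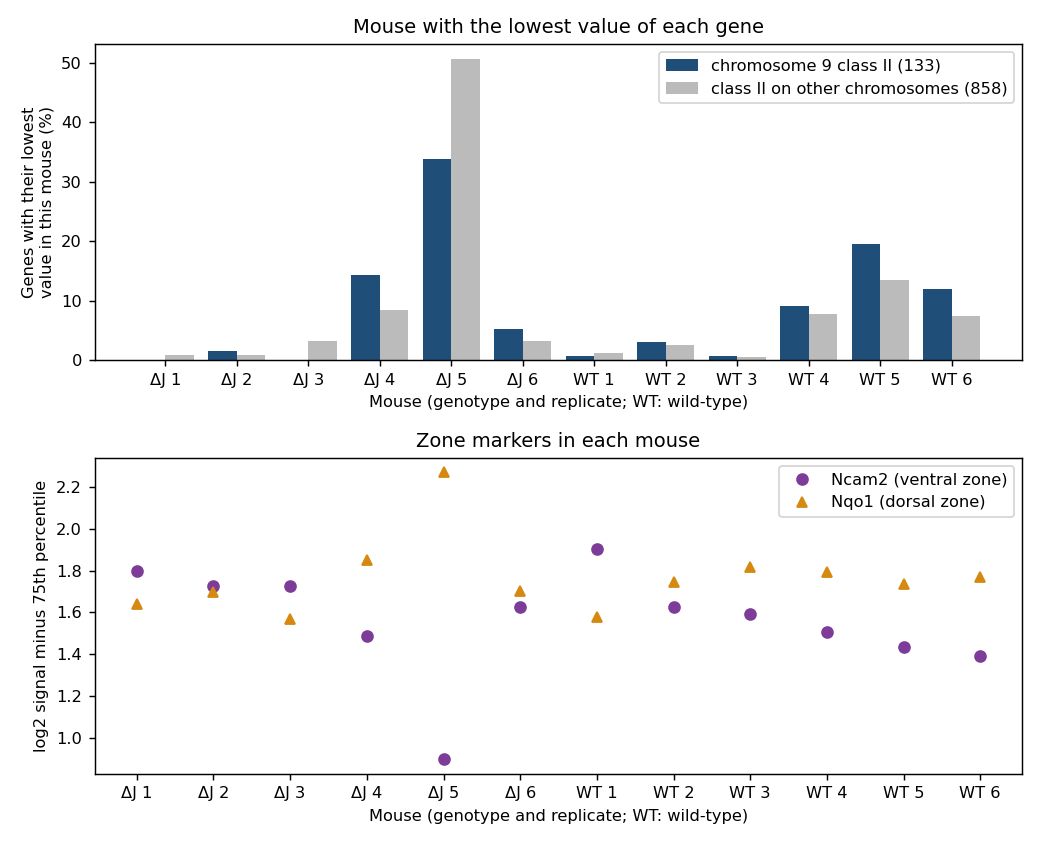
The mouse with the lowest value of each class II gene and the level of a pair of zone markers. The upper bars give the share of genes (percent) whose lowest value among 12 mice fell in each mouse, for the 133 chromosome 9 genes and the 858 on other chromosomes. The lower points give *Ncam2* and *Nqo1* in each mouse (log2 signal minus the 75th percentile). ΔJ replicate 5 holds 33.8% and 50.6% of the lowest values, with *Ncam2* at 0.90 and *Nqo1* at 2.27.

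The 133 genes lay in 2 clusters. Cluster 1 held 36 genes from *Olfr24* to *Olfr18* (GRCm38, chr9:18754656-20335993, 1.58 Mb), and cluster 2 held 97 genes from the probe set of *Olfr160* and *Olfr151* to *Olfr986* (chr9:37711348-40188094, 2.48 Mb). The stretches before the gene starts were searched for words that homeodomain factors bind, TAATTA (alike on both strands), then TAATTG as a variant, then TAATGA as another and also TAATGG, each on either strand and allowed to overlap, within 250 bases before each start in RefSeq (GRCm38.p6). Of 131 distinct first symbols, 107 had an entry. Of these, 63 (58.9%) held a word, beside 404 of 695 class II genes on other chromosomes (58.1%) and 23.1% of the first listed promoters of 27025 genes. The windows of the members were rich in A and T (66.8% of bases, against 47.0% for all genes), and these words consist mostly of A and T.

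Most of these windows end at a start codon. For 68 of the 107 members the annotated start is the ATG itself, so the window need not hold the promoter. Among the other 39, whose annotation begins upstream of the coding sequence, 26 (66.7%) held a word, beside 63.6% of 176 such class II genes on other chromosomes and 21.9% of such genes of every kind. The 26 were 13 of 14 in cluster 1 and 13 of 25 in cluster 2. An Ebf-like word, CCCNNGGG, was found before 2 of 107 members, *Olfr147* and *Olfr983* (1.87%), before 2.88% of the class II genes on other chromosomes and before 11.7% of all genes. A match is a description of letters, and the absence of one says only that the letters are not in this window.

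The stretches of 4 members whose annotated start lies upstream of the coding sequence follow, with homeodomain words in capitals. *Olfr837* and *Olfr845* are shown because they had the highest and the lowest log2 fold change of cluster 1, and *Olfr910* and *Olfr912* because their stretches resemble each other while their values moved in opposite directions between the array sets. Each runs 5′ to 3′ on the plus strand of GRCm38.p6. *Olfr837* lies at chr9:19136678-19136927, *Olfr845* at chr9:19338209-19338458, *Olfr910* at chr9:38537632-38537881 and *Olfr912* at chr9:38579994-38580243.
Olfr837: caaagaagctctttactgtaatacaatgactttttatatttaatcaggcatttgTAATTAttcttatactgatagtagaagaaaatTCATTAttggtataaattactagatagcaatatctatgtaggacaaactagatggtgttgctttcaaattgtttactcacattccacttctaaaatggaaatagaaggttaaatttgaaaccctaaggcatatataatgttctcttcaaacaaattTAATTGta
Olfr845: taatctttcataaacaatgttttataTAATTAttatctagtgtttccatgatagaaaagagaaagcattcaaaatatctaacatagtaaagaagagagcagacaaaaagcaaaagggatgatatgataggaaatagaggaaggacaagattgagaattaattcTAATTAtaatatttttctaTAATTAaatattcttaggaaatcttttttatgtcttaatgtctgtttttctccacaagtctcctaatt
Olfr910: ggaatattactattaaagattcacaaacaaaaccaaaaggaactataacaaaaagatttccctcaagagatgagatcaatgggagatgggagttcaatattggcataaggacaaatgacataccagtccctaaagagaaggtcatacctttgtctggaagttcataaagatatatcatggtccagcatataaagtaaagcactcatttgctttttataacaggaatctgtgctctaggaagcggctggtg
Olfr912: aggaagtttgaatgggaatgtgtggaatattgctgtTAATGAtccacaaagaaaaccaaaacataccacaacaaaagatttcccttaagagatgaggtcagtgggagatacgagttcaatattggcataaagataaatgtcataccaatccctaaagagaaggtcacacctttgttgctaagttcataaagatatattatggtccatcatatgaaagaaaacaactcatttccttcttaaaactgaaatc

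*Olfr837* and *Olfr845* each held 3 homeodomain words, *Olfr912* held 1 and *Olfr910* none. The stretches of *Olfr910* and *Olfr912* were 85.0% identical over 226 aligned bases.

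The study asked whether the effect of the J element reaches beyond the class I cluster, which for these genes is the comparison of ΔJ with wild-type. No member of chromosome 9 was called decreased or increased, and neither was any of the 858 class II genes on other chromosomes. All 75 probe sets called decreased and the 1 called increased were class I. The log2 fold changes (ΔJ minus wild-type) ran from -0.26 (*Olfr845*) to 0.34 (*Olfr887*), so 0 of 133 lay beyond 1.3-fold in either direction, beside 0.816% of class II genes on other chromosomes. None of the 133 had an unadjusted p under 0.05 by limma (8.33% of all OR probe sets, 0.699% of the class II genes on other chromosomes), and in none did the 6 ΔJ mice lie apart from the 6 wild-type mice (5.36% over all OR probe sets, 0 of 858 in the other class II genes). The smallest adjusted p-values by limma belonged to *Olfr229* (0.683) and *Olfr887* (0.832). The 95% confidence interval of the fold change lay within 1.3-fold for 54 members, within 1.5-fold for 119 and within 2-fold for all 133. With the array set in the fit these counts were 106, 131 and 133.

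The median log2 fold change of the members was 0.01, with 60 of 133 below 0 (45.1%). It was -0.04 over the class II genes of other chromosomes, with 62.9% below 0. Among these it was -0.08 on chromosome 7 (78.9% below 0) and -0.08 on chromosome 11 (80.2% below 0). On chromosome 2 it was -0.02 (56.9% below 0), closer to the members. Single mice turned these medians. That of the members was -0.05 with 92 below 0 without ΔJ replicate 1, -0.03 without ΔJ replicate 2 or without wild-type replicate 5, -0.02 without wild-type replicate 6, -0.01 without wild-type replicate 4 and -0.001 without ΔJ replicate 3. It was 0.06 without wild-type replicate 3, which also took the other class II genes to 0.01. Without ΔJ replicate 5 the median of the members was 0.06, with 34 of 133 below 0 (25.6%), and that of the other class II genes was 0.03 (38.2% below 0). The chromosome 7 median then was 0.01 (46.5% below 0), the chromosome 11 median -0.01 (55.6%) and the chromosome 2 median 0.05 (31.4%). Cluster 1 had a median of -0.025 with 21 of 36 genes below 0 and cluster 2 of 0.02 with 39 of 97 below 0. Without ΔJ replicate 5 these were 0.02 with 17 of 36 and 0.07 with 17 of 97. Class I genes had a median of -0.50 in the same fit.

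**Figure D2:**
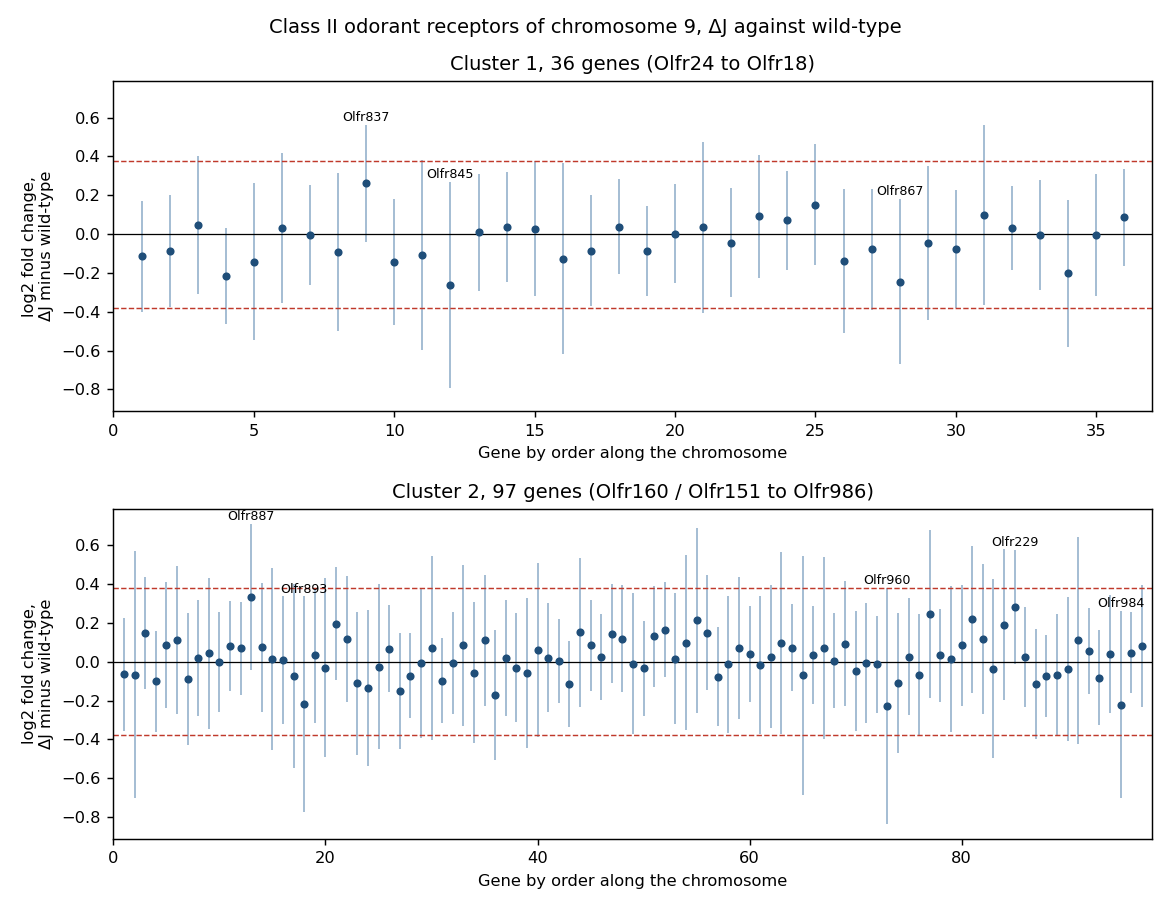
Log2 fold change (ΔJ minus wild-type, n = 6 each) of the 133 class II genes of chromosome 9, by their order in cluster 1 (upper) and cluster 2 (lower). Points are limma estimates, bars their 95% confidence intervals, and dashed lines mark 1.3-fold. All points lie between -0.26 and 0.34, inside the dashed lines.

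*Olfr887* had the highest fold change. Its values were -2.12, -2.10, -2.34, -2.59, -2.44 and -2.87 in ΔJ replicates 1 to 6 and -2.42, -2.57, -2.42, -2.71, -3.35 and -3.02 in wild-type. In each replicate number the ΔJ mouse was higher than the wild-type mouse, while the groups overlapped. Whether the numbers pair the mice is not known. The log2 fold change was 0.34 ± 0.18 (SE, n = 6 and 6), 0.28 in replicates 1 to 3 and 0.39 in replicates 4 to 6. With the replicate number as a block its p was 0.0122 and its adjusted p 0.149 by limma, and with the array set 0.00854 and 0.107. Under the replicate block 4 members (3.01%) had an unadjusted p under 0.05, beside 3.61% of the other class II genes. They were *Olfr229*, *Olfr837*, *Olfr960* and *Olfr887*. Under the array set 4 did as well, with *Olfr969* in place of *Olfr960*, beside 2.45% of the other class II genes. Several other receptors of cluster 2 share its sequence on this array, since 2 probe sets next to it list *Olfr887* among their symbols.

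*Olfr229* had values of -3.80, -4.28, -4.54, -4.26, -3.93 and -4.05 in ΔJ and -4.47, -4.69, -4.43, -4.10, -4.52 and -4.32 in wild-type mice. All 12 lay under the female mean of *Kdm5d*, and the groups overlapped. Its log2 fold change was 0.28 ± 0.14. *Olfr837*, also dim (-5.50 ± 0.29 in wild-type, mean ± SD, n = 6), differed by 0.26 ± 0.14, and *Olfr965* and *Olfr969* by 0.25 ± 0.20 and 0.22 ± 0.18. None of these had an adjusted p under 0.683.

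The 5 members with the lowest log2 fold change moved with ΔJ replicate 5. They were picked from the fit that includes this mouse, and not every low member moved with it. *Olfr893* had values of -0.79, -0.74, -1.01, -1.75, -2.41 and -1.39 in ΔJ and -0.67, -0.90, -0.79, -1.56, -1.48 and -1.36 in wild-type. The value of -2.41 belongs to ΔJ replicate 5, and the other 5 ΔJ mice overlap the wild-type range. The log2 fold change was -0.22 ± 0.26 with this mouse and -0.01 without it. Leaving out this mouse moved the log2 fold change of *Olfr984* from -0.22 to -0.03, that of *Olfr867* from -0.25 to -0.06, that of *Olfr960* from -0.23 to -0.04 and that of *Olfr845* from -0.26 to -0.11. In each of these genes it held the lowest value of the 12 mice. *Olfr830* alone among the low genes named did not rest on it (-0.22 ± 0.12 with and -0.28 ± 0.11 without, adjusted p = 0.865 and 0.288).

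The probe set of *Olfr151* (M71) had values of -3.15, -3.51, -3.27, -4.60, -4.44 and -4.37 in ΔJ and -3.35, -3.30, -3.32, -4.33, -4.59 and -4.05 in wild-type mice. Within each array set the genotypes overlapped, and the log2 fold change was -0.07 ± 0.30 (95% confidence interval -0.70 to 0.57), and 0.04 without ΔJ replicate 5. Replicates 4 to 6 lay below replicates 1 to 3 in both genotypes. In the study's counts of OSNs by in situ hybridization, *Olfr151* showed no obvious difference between ΔJ and wild-type mice. The probe set shared by *Olfr160* (M72) and *Olfr151* was -1.16 ± 0.20 in wild-type and -1.22 ± 0.26 in ΔJ mice (SD, n = 6 each), a difference of -0.06 ± 0.14 (0.02 without ΔJ replicate 5). *Olfr878* differed by 0.02 ± 0.14, *Olfr910* by -0.06 ± 0.17 (0.04 without ΔJ replicate 5) and *Olfr912* by 0.11 ± 0.16, each with an adjusted p of 0.995. None of the genes at the ends of the clusters passed. *Olfr24* differed by -0.11 ± 0.13 (-0.01 without ΔJ replicate 5), *Olfr18* by 0.09 ± 0.12 and *Olfr986* by 0.08 ± 0.15.

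**Figure D3:**
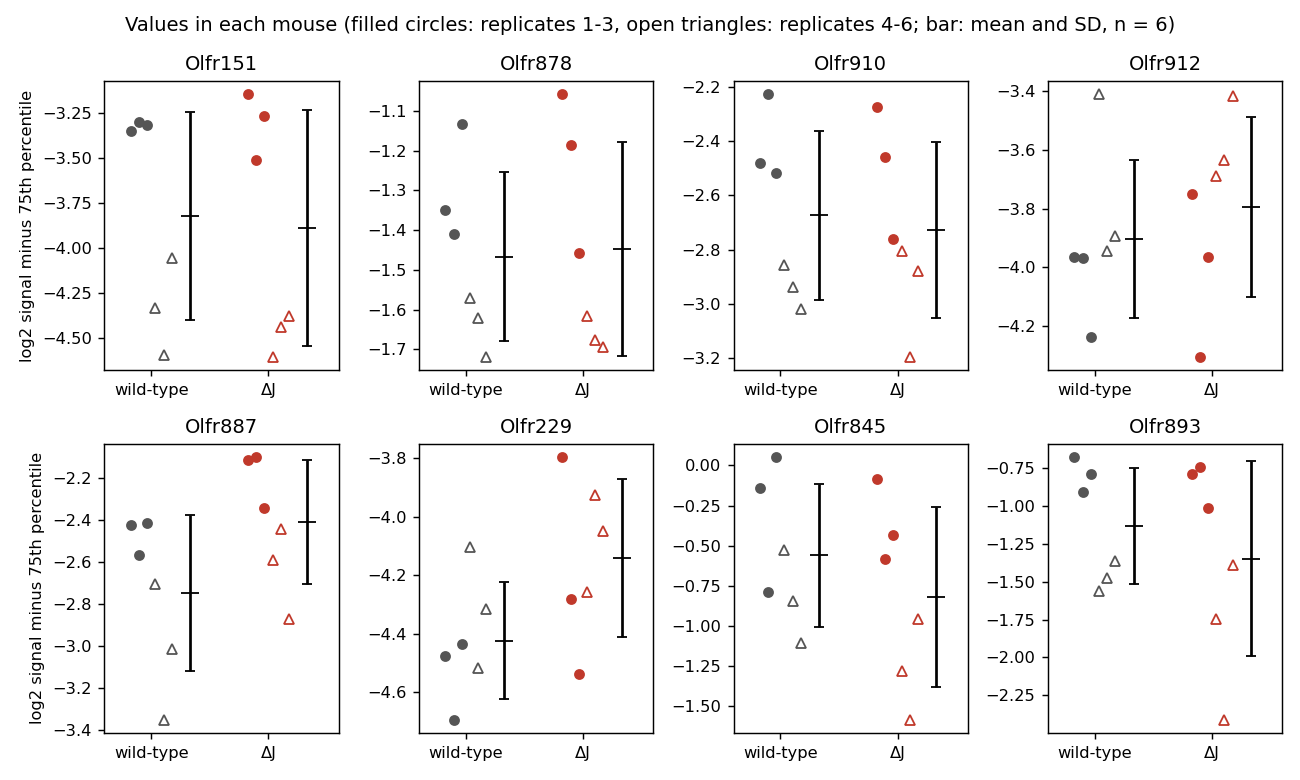
Values of 8 members in each mouse (log2 signal minus the 75th percentile), wild-type in grey and ΔJ in red. Filled circles are replicates 1 to 3, open triangles replicates 4 to 6, and bars the mean and SD of 6 mice. Genotypes overlap in every panel, replicates 4 to 6 of *Olfr151* lie between -4.60 and -4.05, and ΔJ replicate 5 is the lowest triangle of *Olfr893* at -2.41.

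The largest differences among the mice followed the array sets. At an adjusted p under 0.05 (limma with genotype in the fit), 82 of 133 members (61.7%) were lower in replicates 4 to 6 than in 1 to 3 and 4 were higher, beside 54.1% lower and 2.06% higher over all OR probe sets and 31.8% lower and 10.4% higher over 35556 probe sets of every kind. The median difference of the members was -0.34, against -0.29 in the other class II genes and -0.10 over all probe sets. The 75th percentile subtracted ran from 8.38 to 8.42 in replicates 1 to 3 and from 8.53 to 8.56 in replicates 4 to 6. With no percentile shift the median difference of the members was -0.20, so part of the -0.34 comes with the subtraction. The sets were recognized from the spread of these same values, so the p-values describe them and are no independent test. Replicate set, sex ratio and age were not independent: replicates 4 to 6 held 4 females and 2 males and all 3 mice of P33, and replicates 1 to 3 held 3 of each sex, all at P30. Age and array set cannot be fully told apart.

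*Olfr151* differed most, by -1.08 ± 0.10 (adjusted p = 2.41e-06), from -3.31 ± 0.12 in replicates 1 to 3 to -4.40 ± 0.20 in replicates 4 to 6 (SD, n = 6 each). The 2 sets did not overlap in this gene, and in how many OR probe sets they lie apart was not counted. *Olfr952* went from -4.38 ± 0.12 to -5.45 ± 0.10 (adjusted p = 6.83e-07). The background gauge moved with the sets too. *Kdm5d* in females ran from -3.34 to -3.05 in replicates 1 to 3 (mean -3.21, n = 3) and from -4.23 to -3.86 in replicates 4 to 6 (mean -4.10, n = 4). *Olfr952* lay under the gauge in both sets and *Olfr151* did in both by its mean, so a lower floor and a lower level cannot be told apart in them. *Olfr850* fell by 0.84, from -3.15 to -3.99, and *Olfr889* by 0.77, from -3.31 to -4.08, both close to the gauge of each set. Counting by the gauge of each set, 109 members lay above it in both. Of these, 69 were lower in replicates 4 to 6 and 1 was higher. Of 761 class II genes on other chromosomes above it in both, 396 were lower and 11 higher. *Olfr980* went from -2.15 ± 0.10 to -3.05 ± 0.16 (adjusted p = 2.92e-06) and *Olfr960* from -1.35 ± 0.25 to -2.33 ± 0.28 (adjusted p = 3.74e-05), both above the gauge in each set. The probe set of *Olfr160* and *Olfr151* fell by 0.34 (adjusted p = 0.00597), *Olfr878* by 0.38 (adjusted p = 0.00209) and *Olfr910* by 0.50 (adjusted p = 0.0011). The 4 members that were higher in replicates 4 to 6 were *Olfr866* (by 0.39), *Olfr912* (0.37), *Olfr859* (0.31) and *Olfr872* (0.28), of which only *Olfr912* falls under the rule for named genes. The means of *Olfr866*, *Olfr912* and *Olfr872* over 12 mice lay under the pooled gauge of -3.72, and *Olfr859* alone lay above the gauge in both sets. *Olfr912* went from -4.03 ± 0.20 to -3.66 ± 0.23 (adjusted p = 0.0161), the opposite direction to *Olfr910*, with the level in replicates 1 to 3 under the gauge of that set. With quantile normalization 52 members were lower and 7 higher, and the median difference was -0.19.

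Some members hardly varied. *Olfr985* had a pooled SD within genotype of 0.11, with values from -1.74 to -1.52 in ΔJ and from -1.88 to -1.51 in wild-type mice. *Olfr976* and *Olfr871* had SDs of 0.12 and 0.13. *Olfr151*, *Olfr952* and *Olfr960* had the largest, at 0.62, 0.59 and 0.59, and once the array set was in the fit these were 0.17, 0.11 and 0.24. The median SD of the members was 0.26, and 0.17 with the array set fitted.

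Neighbours had a somewhat higher median correlation than distant genes, with wide overlap. After genotype and array set were fitted, the residuals of 131 pairs of next neighbours had a median Pearson r of 0.33 over 12 mice. For 3492 pairs in different clusters it was 0.22, and for 5155 pairs of the same cluster that were not neighbours 0.24. The quartiles were 0.02 and 0.53 for neighbours and -0.04 and 0.45 for pairs in different clusters. Without ΔJ replicate 5 the medians of neighbours and of pairs in different clusters were 0.34 and 0.26. The points share arrays and, in places, sequence: 4 neighbour pairs that share a gene symbol had a median r of 0.58. The pairs most alike, picked as the highest of 8778, lay between the clusters and within cluster 2. *Olfr24* of cluster 1 correlated with *Olfr961*, *Olfr975* and *Olfr984* of cluster 2 at r of 0.97, 0.97 and 0.96, and at 0.94, 0.94 and 0.88 over the 11 mice without ΔJ replicate 5. Within cluster 2, *Olfr975* correlated with the probe set of *Olfr250* and *Olfr899* at 0.965 and with *Olfr961* at 0.96, and at 0.93 and 0.92 without that mouse. In *Olfr24* that mouse was -0.36 and the others ran from 0.08 to 0.49. In *Olfr961* it was -1.84 and the others ran from -1.41 to -0.71.

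The labels give the sex of each mouse, and the 7 females were compared with the 5 males with genotype in the fit. The difference (females minus males) lay below 0 in 121 of 133 members, and its median was -0.14 on the log2 scale. The other class II genes had a median of -0.17 with 786 of 858 below 0, and all probe sets a median of -0.04. No member passed an adjusted p of 0.05 (limma). At an unadjusted p under 0.05, 13 members were lower and 0 higher in females, beside 11% lower and 0% higher over all OR probe sets. With the array set in the fit the median was -0.09 with 105 below 0. Without ΔJ replicate 5 it was -0.11 with 111 below 0. Other mice moved it more. It was -0.26 with 125 below 0 without wild-type replicate 5 and -0.09 with 98 below 0 without wild-type replicate 3. In wild-type mice only it was -0.06 with 87 below 0, and in ΔJ mice only -0.24 with 124 below 0. In P30 mice only it was -0.31 with 126 below 0.

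A further fit took the replicate number as a block, which treats the ΔJ and the wild-type mouse of a number as a pair. In it 29 of 858 class II genes on other chromosomes (3.38%) passed an adjusted p of 0.05 by limma, 28 of them lower in females. Of the members, 5 of 133 passed and were lower in females, beside 3.22% of all OR probe sets. They were *Olfr958* (-0.36 ± 0.08, adjusted p = 0.0446), *Olfr916* (-0.41 ± 0.09, 0.0446), *Olfr843* (-0.38 ± 0.09, 0.0474), *Olfr961* (-0.41 ± 0.09, 0.0474) and *Olfr829* (-0.46 ± 0.11, 0.0474), *Olfr916* being named outside the rule for named genes after its values were seen. Without ΔJ replicate 5 these differences were, in the same order, -0.32, -0.35, -0.30, -0.30 and -0.30. None of the 133 then passed, and the smallest adjusted p by limma was 0.104. Leaving out wild-type replicate 5 instead gave the same counts and the same smallest adjusted p. In this fit a mouse left without its partner no longer informs the sex difference. The change is thus that of leaving out the pair and cannot be assigned to ΔJ replicate 5. Leaving out a mouse of replicates 1, 2, 4 or 6 also left 0 members, and leaving out 1 of replicate 3 left 17, all lower in females. The shares of all OR probe sets in these fits were not counted.

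*Olfr829* ran from -4.10 to -3.33 with a median of -3.56 in females and from -3.38 to -3.07 with a median of -3.10 in males. The lowest female was ΔJ replicate 5, and the sexes overlapped only between -3.38 and -3.33. *Olfr1537* ran from -2.25 to -1.51 in females (median -1.70) and from -1.43 to -1.17 in males (median -1.33), the lowest female being ΔJ replicate 4. The sexes did not overlap in *Olfr1537*, and the difference was -0.45 ± 0.13 without the block (adjusted p = 0.444 by limma). This gene was picked for the smallest p for sex among the members. In how many OR probe sets the sexes lie apart was not counted, so the separation is a description of its values only. In *Olfr961* females ran from -1.84 to -0.994 and males from -0.995 to -0.71.

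*Olfr910* and *Olfr912* did not differ detectably between the sexes. *Olfr910* ran from -3.20 to -2.23 (median -2.81) in females and from -2.94 to -2.27 (median -2.52) in males, a difference of -0.16 ± 0.17 (adjusted p = 0.59). *Olfr912* ran from -3.97 to -3.41 (median -3.89) and from -4.31 to -3.42 (median -3.94), a difference of 0.17 ± 0.16 (adjusted p = 0.564). The sexes overlapped in both, and the 95% confidence intervals were -0.54 to 0.21 and -0.18 to 0.51. How the mice were housed is not on the labels. An interaction of genotype and sex, added after the data were seen, passed in 0 of 133 members at an adjusted p under 0.05 by limma and in *Olfr945* alone at an unadjusted p under 0.05.

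**Figure D4:**
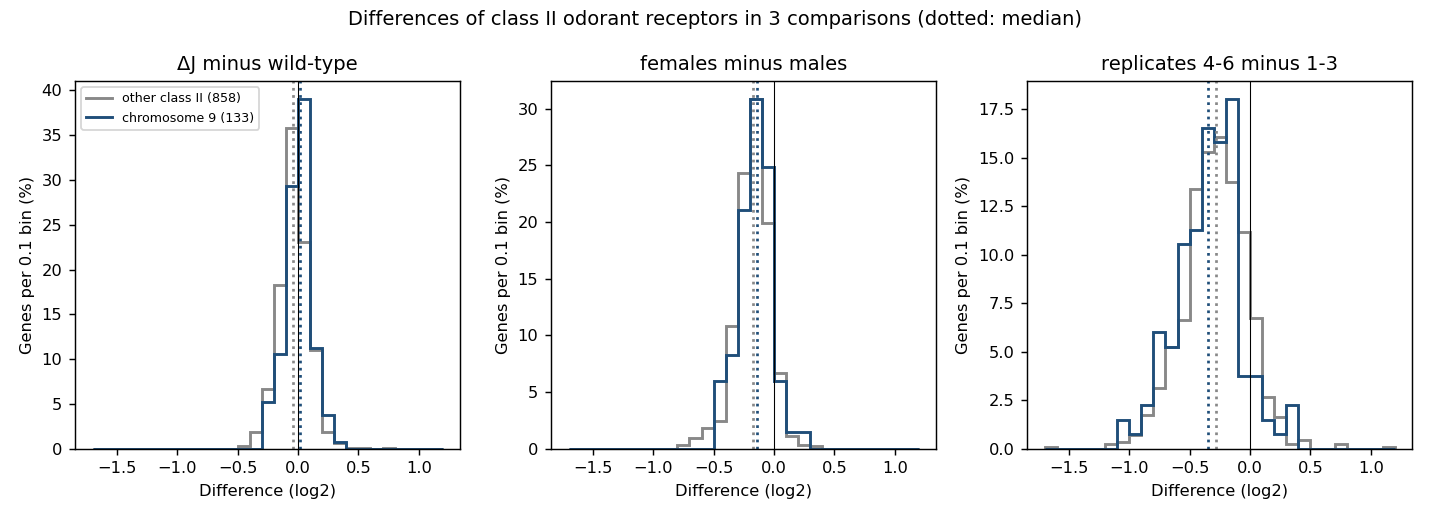
Share of genes (percent per bin of 0.1) by log2 difference for the 133 chromosome 9 members (blue) and the 858 class II genes on other chromosomes (grey), in 3 comparisons: ΔJ minus wild-type, females minus males and replicates 4 to 6 minus 1 to 3. Dotted lines are medians, 0.01 and -0.04, -0.14 and -0.17, and -0.34 and -0.29 for members and other genes in turn.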

How the data were processed

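RNA of the MOE of 12 mice was hybridized to 12 Affymetrix arrays, 1 per mouse. The values that the authors deposited are log2 signals, 35556 per array. Affymetrix Expression Console is the tool given by the submitters' processing notes. Which version, background correction or summarization was used the sources used here do not give. Following the study's methods, the 75th percentile of each array was subtracted and limma (version 3.58.1, under R 4.3.3) was run on the OR probe sets alone with a term for genotype, and the p-values received a Benjamini-Hochberg adjustment over the OR probe sets. The marker lists were fitted over all probe sets. A call needed an adjusted p under 0.05 and more than a 1.3-fold change. Class, chromosome and position of the probe sets came from the study's list of OR probe sets, of which no value was used. Sequences are those of RefSeq (GRCm38.p6), read with Python 3.11.15 and aligned with Biopython 1.88 (global alignment, match 2, mismatch -1, gap opening -5, gap extension -0.5), with the first listed start of each gene.

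Named genes are *Olfr151*, its shared probe set with *Olfr160*, *Olfr878*, *Olfr910* and *Olfr912*, the 5 highest and 5 lowest log2 fold changes, the 5 smallest p for genotype, for sex and for the array set, the 3 largest and 3 smallest SDs, the cluster ends and up to 10 called members. Members, lists and tests were chosen with earlier results of these data known. Deviations from the genotype means, compared between same-numbered mice, correlated at 0.365, 0.294, 0.419, 0.441, 0.185 and 0.385 for replicates 1 to 6. The array set was not taken out of these deviations, and mice of a number always lie in the same set. The correlations therefore cannot show whether the numbers pair the mice. The blocked fit is given as an alternative where it changes a call. Neither the labels nor the methods say what mice of a number share. No arrays held identical values. The genotype fit alone was tested on simulated data, in which genes varied independently and no array sets differed. The sex, array set, blocked, correlation and sequence steps were not tested in this way. The number of arrays limits the precision.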

Additional observations from a re-analysis of the deposited data

Results flagged for a closer look

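A mouse far from the other 5 of its genotype, by Dixon's test in groups of 6, was looked for in the named members and in *Ncam2* and *Nqo1*. *Olfr867* was -2.08 in ΔJ replicate 5, with the next ΔJ mouse at -1.18. *Ncam2*, the ventral zone marker, was 0.90 in the same mouse, with the next ΔJ mouse at 1.49. *Olfr837* was -4.86 in ΔJ replicate 2, above the next at -5.21, in a range under the background gauge. *Olfr961* was -0.71 in wild-type replicate 3, above the next at -0.99. *Nqo1*, the dorsal zone marker, was 1.58 in wild-type replicate 1, below the next at 1.74. Over all 133 members and both genotypes, 8 of 266 groups (3.01%) held such a mouse, and chance flags about 5%. Of these 8 groups, 2 were ΔJ and 6 wild-type, and 1 was set apart by ΔJ replicate 5.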

How the results depend on the processing

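No member was called under any of the 31 alternatives to the genotype fit, the replicate block included (0 called decreased and 0 increased), and the lowest adjusted p of a named member was 0.107 (*Olfr887* with the array set as a block). The median log2 fold change ran from -0.084 to 0.061. The number of members below 0, 60 in the fit reported, was 96 with P30 mice only and 97 with females only, and ran from 34 without ΔJ replicate 5 to 92 without ΔJ replicate 1 when each mouse was left out. The members that differed between the sexes numbered 0, 5 with the replicate block, which treats mice of a number as a pair, and 13 by an unadjusted p. The 82 members lower in replicates 4 to 6 became 47 with no percentile shift, 52 with quantile normalization and 23 in ΔJ mice only, and the 4 higher became 7 with quantile normalization, 2 in wild-type mice only, 0 in ΔJ mice only and 1 with a fold beyond 1.3. Leaving out each mouse gave 72 to 88 lower and 2 to 5 higher. Of the 36 members the rule names, 19 kept the sign of their genotype difference under every alternative run, and 89 of 963 values had the other sign, none of them past the test. These were *Olfr151* 0.014, *Olfr1537* 0.22, *Olfr961* 0.035, *Olfr958* 0.067 and *Olfr971* 0.013 with replicates 1 to 3 only, *Olfr878* -0.015, *Olfr829* -0.029 and *Olfr889* -0.028 with sex as a covariate, *Olfr878* -0.031, *Olfr1537* 0.013 and *Olfr889* -0.067 with age as a covariate and *Olfr878* -0.032, *Olfr986* -0.013, *Olfr980* -0.0084, *Olfr889* -0.050 and *Olfr955* / *Olfr952* / *Olfr938* -0.025 with P30 mice only. Further, *Olfr878* -0.071, *Olfr829* -0.21, *Olfr889* -0.084 and *Olfr955* / *Olfr952* / *Olfr938* -0.012 with females only, *Olfr878* -0.025, *Olfr829* -0.19, *Olfr889* -0.026 and *Olfr891* 0.00082 with replicates 4 to 6 only, *Olfr910* 0.0029, *Olfr1537* 0.029 and *Olfr971* 0.015 with quantile normalization, *Olfr1537* 0.026, *Olfr971* 0.0054 and *Olfr926* 0.032 with arrays centred on the median of all probe sets, *Olfr1537* 0.014 and *Olfr926* 0.021 with arrays centred on the class II genes of other chromosomes and *Olfr926* 0.0027 with no percentile shift. Leaving out each mouse gave ranges that cross 0 of -0.11 to 0.025 for *Olfr160* / *Olfr151*, -0.22 to 0.076 for *Olfr151*, -0.058 to 0.086 for *Olfr878*, -0.15 to 0.038 for *Olfr910*, -0.10 to 0.12 for *Olfr1537*, -0.023 to 0.18 for *Olfr829*, -0.18 to 0.033 for *Olfr961*, -0.11 to 0.059 for *Olfr958*, -0.22 to 0.062 for *Olfr952*, -0.0080 to 0.066 for *Olfr871*, -0.0075 to 0.16 for *Olfr986*, -0.0014 to 0.23 for *Olfr980*, -0.094 to 0.13 for *Olfr889*, -0.20 to 0.032 for *Olfr891*, -0.038 to 0.20 for *Olfr955* / *Olfr952* / *Olfr938*, -0.14 to 0.076 for *Olfr971* and -0.082 to 0.078 for *Olfr926*. The causes were not tested.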
